A study of Saccharomyces cerevisiae with 6 samples.

Results

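YOR073W-A, YJL195C and YDL163W are short open reading frames of budding yeast (Saccharomyces cerevisiae) that lie opposite the start of CDC21, CDC6 and CDC9, 3 genes of DNA replication. They were taken by identifier and are 3 of the 7127 features with deposited read counts. None of the 3 is in the RefSeq annotation, and all 3 held enough reads to be tested. RNA was sequenced from strain BY4741, a MATa haploid laboratory strain with deletions in HIS3, LEU2, MET17 and URA3, grown in synthetic complete medium. Cells were then starved of nitrogen for 1 h (2 libraries), starved of potassium for 1 h (2 libraries) or kept growing untreated over that hour as control (2 libraries). The series concerns autophagy under potassium starvation. A batch number, 1 or 2, is the only trace of separate cultures, so the p-values rest on differences among the libraries that may be technical.

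Before a cell can copy its DNA it must load the replicative helicase at origins in G1, make enough deoxynucleotides, and later join the fragments of the lagging strand. CDC6 encodes the ATPase that, with the origin recognition complex, loads the MCM helicase. CDC21 encodes thymidylate synthase, which makes dTMP from dUMP, the only de novo source of thymidine nucleotides. CDC9 encodes DNA ligase I, which seals Okazaki fragments. In yeast CDC21 and CDC9 are transcribed at the passage from G1 to S phase by the factor MBF, which binds the MluI cell-cycle box (MCB), and CDC6 is transcribed mainly from late mitosis into G1. Starvation for nitrogen is known to halt yeast cells in G1.

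Each feature crosses the start codon of the gene it faces (R64 coordinates). YOR073W-A, 234 bases on the plus strand of chromosome XV (chrXV:467390-467623), has 200 bases opposite the single coding exon of CDC21 (YOR074C, chrXV:466675-467589) and runs 34 bases past its start codon. YJL195C, 702 bases on the minus strand of chromosome X (chrX:69241-69942), has 605 bases opposite the single coding exon of CDC6 (YJL194W, chrX:69338-70879) and runs 97 bases past its start codon. YDL163W, 303 bases on the plus strand of chromosome IV (chrIV:166956-167258), has 299 bases opposite the single coding exon of CDC9 (YDL164C, chrIV:164987-167254) and runs 4 bases past its start codon. They face 21.9%, 39.2% and 13.2% of the coding regions of CDC21, CDC6 and CDC9. Crossing a start codon is common for such features: of 403 features that lie opposite exactly 1 protein-coding gene, called paired features below, 186 (46.2%) cover that gene's start codon.

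**Figure D1:**
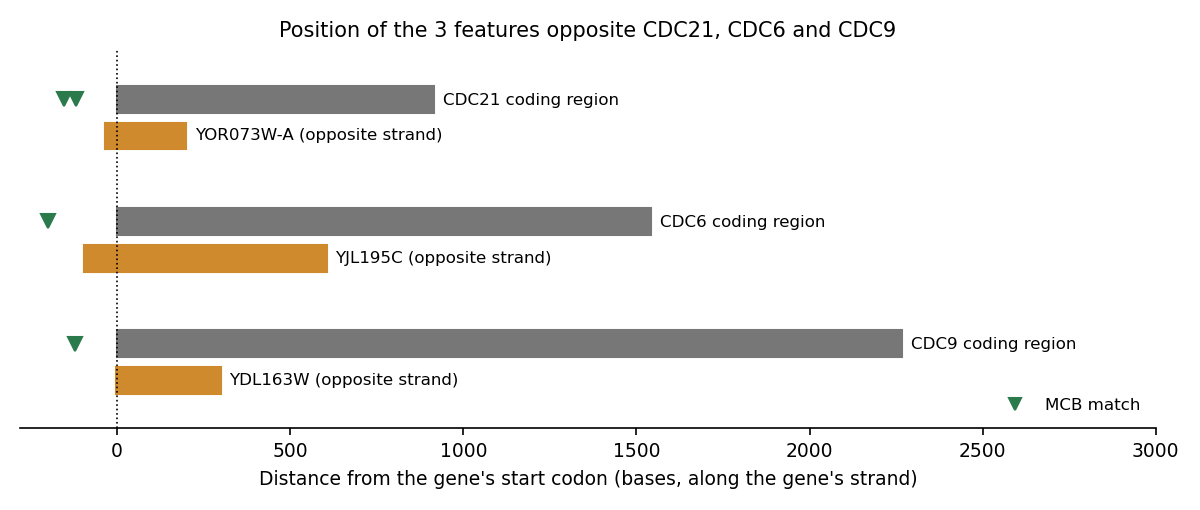
Positions of the 3 features (orange) against the coding regions of the genes they face (grey), in bases from the gene's start codon along the gene's strand, with matches to the MCB motif as green triangles. The features reach 34, 97 and 4 bases past the start codons of CDC21, CDC6 and CDC9, and each promoter has at least 1 match.

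The ends of the 3 features, from the RefSeq R64 genome, are shown because they cross the start codons. Each is read 5′ to 3′ on the feature's strand and ends in the feature's stop codon, and the capitals mark the complement of the gene's start codon. YDL163W stops right after it.
YOR073W-A, chrXV:467542-467623, plus strand: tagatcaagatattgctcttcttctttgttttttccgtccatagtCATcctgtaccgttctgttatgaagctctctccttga
YJL195C, chrX:69241-69385, minus strand: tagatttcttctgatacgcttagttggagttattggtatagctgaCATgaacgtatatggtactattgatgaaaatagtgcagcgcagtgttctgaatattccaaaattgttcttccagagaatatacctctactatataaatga
YDL163W, chrIV:167207-167258, plus strand: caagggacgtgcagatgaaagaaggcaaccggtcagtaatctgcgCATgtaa

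The promoters, also from RefSeq R64, are shown for the MCB motif, ACGCGT, which reads the same on both strands and is in capitals. Each window runs from 250 bases before the start codon to 50 bases from it, on the gene's strand. CDC21 has 2 matches, whose first bases lie at -158 and -121 from the start codon, CDC6 has 1 at -204, and CDC9 has 1 at -125. Of 6020 windows of protein-coding genes, 184 (3.06%) hold the motif and 21 (0.349%) hold it at least 2 times. A match says only that these letters are present.
CDC21, chrXV:467540-467839, minus strand: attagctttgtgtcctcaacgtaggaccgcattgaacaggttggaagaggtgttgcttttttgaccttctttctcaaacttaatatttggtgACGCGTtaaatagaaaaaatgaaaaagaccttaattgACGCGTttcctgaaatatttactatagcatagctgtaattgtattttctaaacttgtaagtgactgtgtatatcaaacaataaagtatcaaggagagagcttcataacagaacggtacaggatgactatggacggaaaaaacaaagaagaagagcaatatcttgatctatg
CDC6, chrX:69088-69387, plus strand: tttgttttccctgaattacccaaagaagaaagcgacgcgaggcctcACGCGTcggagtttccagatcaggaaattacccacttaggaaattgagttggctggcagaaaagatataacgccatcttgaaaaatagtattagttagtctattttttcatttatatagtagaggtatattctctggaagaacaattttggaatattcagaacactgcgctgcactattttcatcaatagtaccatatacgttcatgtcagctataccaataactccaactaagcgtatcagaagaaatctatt
CDC9, chrIV:167205-167504, minus strand: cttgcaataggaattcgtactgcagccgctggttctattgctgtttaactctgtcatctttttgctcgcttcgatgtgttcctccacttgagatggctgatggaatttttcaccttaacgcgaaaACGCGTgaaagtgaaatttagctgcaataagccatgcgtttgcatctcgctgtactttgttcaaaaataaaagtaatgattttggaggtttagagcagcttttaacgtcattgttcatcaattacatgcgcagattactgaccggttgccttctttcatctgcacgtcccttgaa

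The libraries are shallow, with 357835 to 425923 reads each, and all 3 features held fewer than 100 reads in every library. The 2 potassium libraries differed most from each other, with a chi-square over its degrees of freedom of 28.82, against 8.16 for the nitrogen pair and 7.59 for the control pair. The share of reads under paired features was 29.29% and 26.88% in nitrogen starvation, 52.23% and 43.4% in potassium starvation, and 63.89% and 59.66% in control. Values therefore depend on the scaling, and 3 scalings are given. TMM, used unless stated, assumes that most tested features hold steady, and its factors were 2.18 and 2.01 for nitrogen, 1.01 and 0.57 for potassium, and 0.69 and 0.58 for control. Paired scaling applies the same method to the paired features alone. Against TMM it moved the log2 fold changes of the tested features upward. The median shift was 1.30 in nitrogen against control, 0.22 in potassium against control and 1.08 in nitrogen against potassium. Library size uses the sum of reads over the tested features, and its median shifts were 1.71, 0.30 and 1.4. Ratios per total reads, given below, divide by all reads of a library instead. Of the 4 deleted markers, 3 were at 0 in every library and HIS3 held at most 7 reads. The 4 MATa-specific genes MFA1, MFA2, STE2 and BAR1 held at most 4 reads in any library. Of the 3 alpha-specific genes, MF(ALPHA)1 was at 0 in every library. MF(ALPHA)2 held 53 and 58 reads in nitrogen, 27 and 25 in potassium, and 19 and 19 in control, and STE3 held 84 and 235 in nitrogen, 7 and 1 in potassium, and 7 and 4 in control. With the strand setting of the counting not given in the sources used here, these counts do not check the strain.

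The genes' own identifiers held few reads. CDC21 itself held 1 and 2 reads in nitrogen, 0 and 1 in potassium, and 2 and 3 in control, where YOR073W-A held 38 and 38. CDC9 itself held 0 and 3 reads in nitrogen, 0 and 0 in potassium, and 0 and 1 in control. CDC6 itself held 13 and 3 reads in nitrogen, 3 and 3 in potassium, and 1 and 1 in control, so that nitrogen library 1 alone stood out. None of the 3 identifiers passed the filter on low counts. The strand setting of the counting is not given in the sources used here, so reads are reported under the identifier that holds them, and from which strand they came was not tested.

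Per length, the 3 features were not equally covered in control cells. YOR073W-A held 162 and 162 reads per kilobase, YJL195C 89.7 and 72.6, and YDL163W 69.3 and 72.6. YOR073W-A was thus the highest, while YJL195C and YDL163W had the same value in control library 2 and did not differ beyond their spread. The deposited TPM values put YOR073W-A at 480 and 480, YJL195C at 27.7 and 22.4, and YDL163W at 76.0 and 79.6, which turns the order of the last pair round. TPM divides by an effective length, which was 15.8 bases for YOR073W-A and 55 bases for YDL163W, against 453 bases for YJL195C, so levels of the short features rest strongly on that estimate.

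The first comparison sets nitrogen-starved cells against control cells. Reads under YOR073W-A, opposite CDC21, fell in nitrogen starvation under all 3 scalings. Reads under YJL195C, opposite CDC6, fell by a smaller amount with TMM and with paired scaling, but did not pass with library size. For YDL163W, opposite CDC9, the fall called with TMM was lost with both other scalings and its sign turned with library size. With TMM 3 of 3 features were called lower, at an adjusted p below 0.05, where 20.4% of the 2325 tested features and 59.3% of the 364 tested paired features were. With paired scaling the count was 2 of 3, against 7.53% of tested features and 25.5% of paired ones, and with library size 1 of 3, against 4.95% and 18.4%. With TMM the 3 had a median log2 fold change of -2.38, beside 0.28 over all tested features and -1.17 over the paired ones.

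YOR073W-A held 7 and 11 reads in the nitrogen libraries, against 38 and 38 in the control libraries. The 2 control libraries were equal. Scaled by TMM, this was 12.3 ± 4.22 CPM in nitrogen starvation and 146 ± 18.6 CPM in control (SD, n = 2 each). The log2 fold change was -3.54 (SE 0.44, edgeR quasi-likelihood adjusted p = 3.3e-04). With paired scaling the log2 fold change was -2.23 (SE 0.47, adjusted p = 0.0038), and with library size -1.83 (SE 0.61, adjusted p = 0.021). The ratio of reads per total reads was 0.273, with a 95% counting interval of 0.154 to 0.461. Of the 364 paired features, 38 (10.4%) had a lower log2 fold change with TMM. Within batch 1 the log2 ratio per total reads was -2.19 and within batch 2 it was -1.63, so both batches point the same way. In bulk RNA, fewer cells that hold an RNA and less of it per cell cannot be told apart. The cause of the fall was not tested.

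YJL195C held 32 and 29 reads in the nitrogen libraries, against 63 and 51 in the control libraries. TMM gave 41.3 ± 1.59 CPM in nitrogen starvation and 216 ± 4.54 CPM in control (SD, n = 2 each). The log2 fold change was -2.38 (SE 0.32, edgeR adjusted p = 5.2e-04). Paired scaling gave -1.07 (SE 0.34, adjusted p = 0.022) and library size -0.66 (SE 0.50, adjusted p = 0.25). The ratio per total reads was 0.617, with a counting interval of 0.444 to 0.849 that covers counting error only. Batch 1 gave a log2 ratio per total reads of -0.73 and batch 2 of -0.65.

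YDL163W held 17 and 29 reads in the nitrogen libraries, against 21 and 22 in the control libraries. Here the control values lie between the 2 nitrogen values. In CPM by TMM the feature stood at 31.4 ± 12.5 in nitrogen starvation and 82.5 ± 13.3 in control (SD, n = 2 each). The log2 fold change was -1.38 with TMM (SE 0.45, edgeR adjusted p = 0.033), -0.07 with paired scaling (SE 0.46, adjusted p = 0.89) and 0.33 with library size (SE 0.54, adjusted p = 0.60). The TMM call was also lost without nitrogen library 1, control library 1 or control library 2 (adjusted p up to 0.18). Its value lies near the median of the paired features, since 160 of 364 (44.0%) had a lower one. The ratio per total reads was 1.23, with a counting interval of 0.796 to 1.91, and its log2 value was -0.05 in batch 1 and 0.56 in batch 2.

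**Figure D2:**
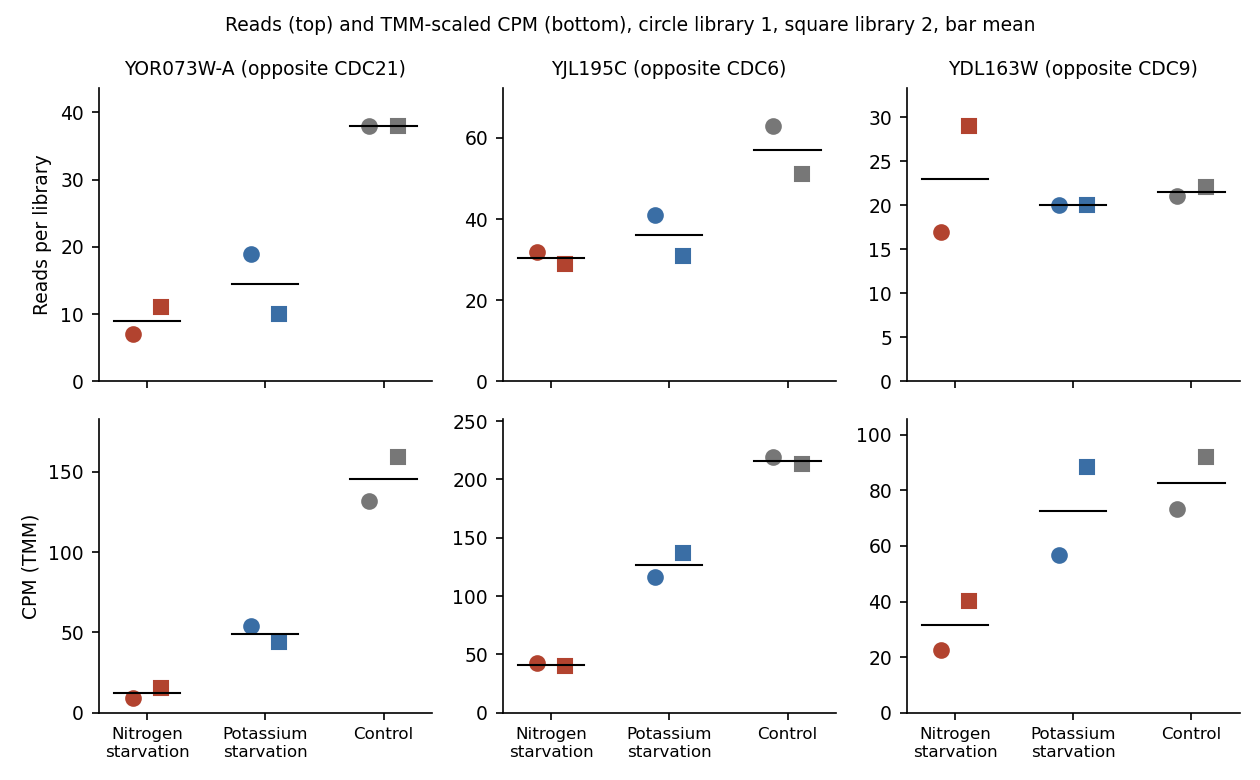
Reads per library (top row) and CPM scaled by TMM (bottom row) for the features opposite CDC21, CDC6 and CDC9 in nitrogen-starved, potassium-starved and control cells; points are libraries and bars are means of 2. YDL163W held 17 and 29 reads in nitrogen starvation and 21 and 22 in control, yet its CPM is lower in nitrogen starvation because the TMM factors of the nitrogen libraries are larger.

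The second comparison sets potassium-starved cells against the same control libraries. Of the 3 features only YOR073W-A was called, and only narrowly, with fewer reads in potassium starvation. YJL195C and YDL163W did not pass. With TMM 1 of 3 was called lower, where 4.60% of tested features and 14.8% of paired ones were, and DESeq2 called 1 of 3. With paired scaling edgeR called 0 of 3 (1 of 3 at an unadjusted p below 0.05), against 3.57% of tested features and 13.5% of paired ones. With library size it called 0 of 3 (0 unadjusted), against 1.76% and 8.24%. The median of the 3 with TMM was -0.78, beside 0.01 over all tested features and -0.21 over the paired ones.

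YOR073W-A held 19 and 10 reads in the potassium libraries, against 38 and 38 in the control libraries. TMM gave 49.0 ± 6.82 CPM in potassium starvation and 146 ± 18.6 CPM in control (SD, n = 2 each). That is a log2 fold change of -1.55 (SE 0.41, edgeR adjusted p = 0.049). With the batch number as replicate block the adjusted p was 0.051. It was 0.11 with paired scaling (log2 fold change -1.32) and 0.27 with library size (-1.21). It was above the threshold in each of the 6 fits without 1 library, from 0.053 to 0.19, with log2 fold changes from -1.68 to -1.43. The log2 ratio per total reads was -0.75 in batch 1 and -1.87 in batch 2. The pooled ratio was 0.423, with a counting interval of 0.266 to 0.656.

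YJL195C held 41 and 31 reads in the potassium libraries, against 63 and 51 in the control libraries. Its log2 fold change was -0.78 with TMM (SE 0.31, edgeR adjusted p = 0.15), -0.57 with paired scaling and -0.49 with library size. The log2 ratio per total reads was -0.37 in batch 1 and -0.66 in batch 2. YDL163W held 20 and 20 reads in the potassium libraries, against 21 and 22 in the control libraries. Its log2 fold change was -0.20 with TMM (SE 0.46, edgeR adjusted p = 0.83), -0.01 with paired scaling and 0.05 with library size. The ratio per total reads was 1.03, and its counting interval of 0.653 to 1.62 leaves room for changes of moderate size in either direction.

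**Figure D3:**
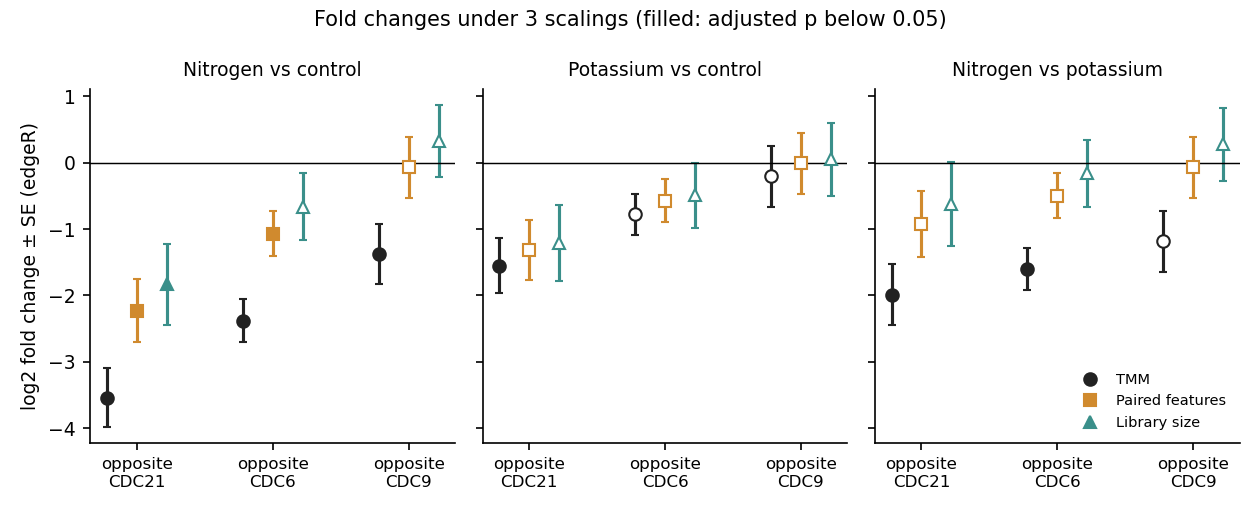
Log2 fold changes with their SE from edgeR for the 3 features in the 3 comparisons, under TMM (circles), paired scaling (squares) and library size (triangles); filled symbols have an adjusted p below 0.05. Only the feature opposite CDC21 in nitrogen starvation against control is filled under all 3 scalings (-3.54, -2.23 and -1.83).

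Nitrogen and potassium starvation were also compared directly. With TMM 2 of 3 features were called lower in nitrogen starvation, where 19.4% of tested features and 57.4% of paired ones were, and DESeq2 also called 2. With paired scaling edgeR called 0 of 3 (0 at an unadjusted p below 0.05), against 7.61% and 24.5%, and with library size 0 of 3 (0 unadjusted), against 4.17% and 14.0%. YOR073W-A had a log2 fold change of -1.99 with TMM (SE 0.46, edgeR adjusted p = 0.0086), -0.92 with paired scaling (adjusted p = 0.15) and -0.62 with library size (adjusted p = 0.41). Its 7 and 11 reads in nitrogen starvation overlap the 19 and 10 in potassium starvation, and the log2 ratio per total reads was -1.43 in batch 1 and 0.24 in batch 2. YJL195C had -1.60 with TMM (SE 0.32, adjusted p = 0.0046), -0.50 with paired scaling (adjusted p = 0.24) and -0.16 with library size (adjusted p = 0.79). The 32 and 29 reads of YJL195C in nitrogen starvation also overlap its 41 and 31 in potassium starvation. Per total reads its log2 ratio was -0.35 in batch 1 and 0.01 in batch 2. YDL163W had -1.18 with TMM (SE 0.46, adjusted p = 0.065, or 0.035 with the replicate block), -0.07 with paired scaling and 0.28 with library size. Between the 2 starvations the direction thus rests on the scaling for YDL163W, and the call rests on it for YOR073W-A and YJL195C.

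The ratio of reads between 2 features within a library does not depend on scaling. Reads under YOR073W-A numbered 0.412 and 0.379 per read under YDL163W in the nitrogen libraries, 0.95 and 0.5 in the potassium libraries, and 1.81 and 1.73 in the control libraries. No group overlaps another, and the mean log2 ratio differed from that of control by -2.16 in nitrogen starvation and by -1.36 in potassium starvation. Reads under YJL195C per read under YDL163W were 1.88 and 1.00 in nitrogen, 2.05 and 1.55 in potassium, and 3.0 and 2.32 in control. Both starved groups lie below the control group and overlap each other. The ratio of YOR073W-A to YJL195C was 0.219 and 0.379 in nitrogen, 0.463 and 0.323 in potassium, and 0.603 and 0.745 in control. Against control, both starved groups thus held fewer reads under the feature opposite CDC21 relative to the one opposite CDC6, and fewer under that one relative to the feature opposite CDC9. An exact two-sided permutation test with 2 libraries against 2 cannot go below p = 0.333, the value reached by each of the 7 comparisons without overlap out of 9, so this order is a description.

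**Figure D4:**
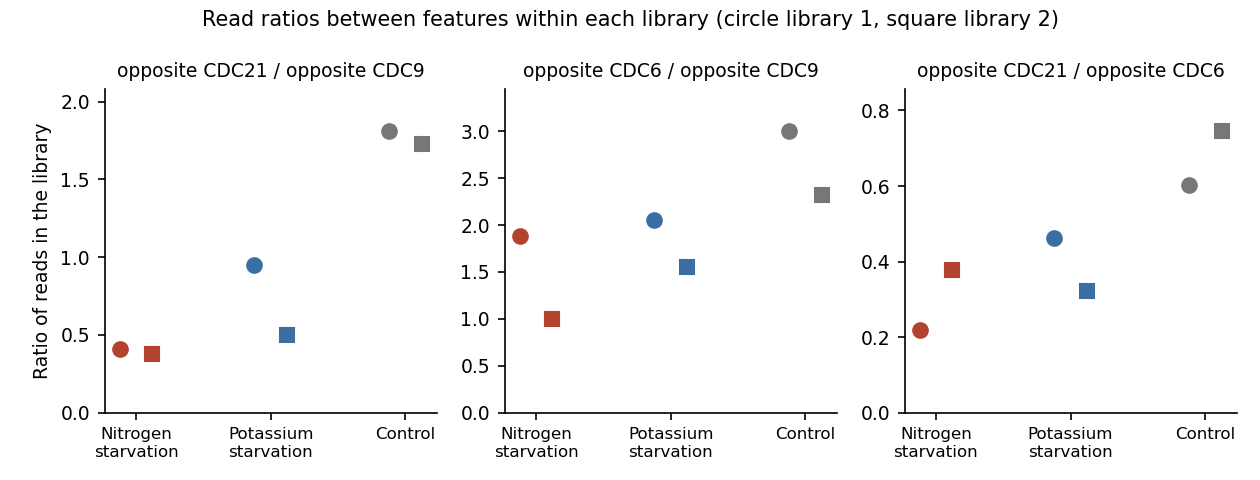
Ratio of reads between pairs of the 3 features within each library, for nitrogen-starved, potassium-starved and control cells; circles are library 1 and squares library 2. In each panel the 2 control libraries lie above the 4 starved ones, as with 1.81 and 1.73 against 0.379 to 0.95 for YOR073W-A per YDL163W.

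Annotated genes near the features on the same strand were few. ELO1, a fatty acid elongase gene 458 bases downstream of YJL195C, held 26 and 28 reads in nitrogen, 11 and 14 in potassium, and 27 and 39 in control. ENT1, for an endocytic adaptor, begins 455 bases past YDL163W and held 38 and 35 reads in nitrogen, 10 and 5 in potassium, and 5 and 10 in control. These are reads as deposited, with no scaling. No annotated gene lies within 500 bases of YOR073W-A on its strand.

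Likeness of pattern was measured as the Euclidean distance between centred log2 CPM over the 6 libraries, among the other 363 tested paired features. For YOR073W-A the closest were the features opposite LSM5 (distance 0.73), RPS27A (0.81), SUI3 (0.89), RRP15 (0.90) and RPC19 (0.93), beside a median distance of 2.7. For YJL195C they were those opposite GIM5, KAP95, SMI1, CCT2 and MPP6, at 0.37 to 0.44 beside a median of 1.78. For YDL163W they were those opposite NET1, CNE1, ESS1, PAR32 and SCD6, at 0.45 to 0.51 beside a median of 1.53. The 3 features were not each other's nearest: YJL195C ranked 29th and YDL163W 105th by closeness to YOR073W-A. With 6 libraries that share their scaling, these distances are descriptions.

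Other genes of DNA replication and its cell-cycle control were taken from 9 lists with 138 genes in all. Of these, 11 have a paired feature, including the 3 above. YBR089W, the feature opposite POL30, which encodes the sliding clamp PCNA, had the lowest log2 fold change of the 11 in each starvation against control. It held 125 and 123 reads in nitrogen, 171 and 175 in potassium, and 610 and 692 in control. Its log2 fold change was -3.90 in nitrogen against control (SE 0.30, edgeR adjusted p = 3.9e-05), -2.58 with paired scaling and -2.15 with library size. In potassium against control it was -2.0 (SE 0.28, adjusted p = 0.0053), -1.81 and -1.76. All 6 of these values passed the threshold. Reads under the feature opposite RFC1, the large subunit of the clamp loader, numbered 140 and 136 in nitrogen, 128 and 130 in potassium, and 189 and 180 in control. It was called lower in nitrogen starvation with TMM (-1.91) and with paired scaling (-0.59, adjusted p = 0.037), not with library size (-0.18).

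The features opposite the remaining 6 genes were called lower in nitrogen starvation with TMM and with neither other scaling. The genes are RNR2 (a ribonucleotide reductase subunit), MCM3 (of the MCM helicase), CDC7 and DBF4 (the kinase that fires origins and its activator), DPB3 (of DNA polymerase epsilon) and DSE3 (a gene of daughter cells). The log2 fold changes of these features ran from -1.66 to -1.16 with TMM and from -0.36 to 0.15 with paired scaling, where none passed. With TMM 11 of the 11 features were lower, where 59.3% of paired features were. With paired scaling 4 of 11 were (opposite CDC21, CDC6, POL30 and RFC1), against 25.5%. With library size 2 of 11 were (opposite CDC21 and POL30), against 18.4%. Without the 3 features described above, 2 of 8 were lower with paired scaling and 1 of 8 with library size. The counts with these 2 scalings are thus near the background. In potassium starvation 2 of 11 were lower with TMM (opposite CDC21 and POL30), against 14.8% of paired features. The feature opposite POL30 was the 1 of 11 lower with paired scaling, against 13.5%, and with library size, against 8.24%, and these counts too are near the background. The 2 starvation comparisons share their control libraries. An MCB match lies in the promoter windows of CDC21, CDC6, CDC9, POL30 and DBF4, and none in those of RNR2, MCM3, CDC7, DPB3, RFC1 and DSE3. In nitrogen starvation against control, genes with a match include POL30 and CDC21, whose opposite features had the lowest values of the 11 under all 3 scalings, and DBF4, whose opposite feature had the highest. CNCGAAA, a motif of the related factor SBF searched on both strands, was found in the windows of RNR2, MCM3, DPB3, POL30, RFC1 and CDC9 and in 13.8% of all windows. In CDC9 it ends right before the MCB match, and in POL30 it overlaps the MCB match by 1 base. ACCAGC, a core bound by Swi5, was found in that of CDC9 and in 8.09% of all.

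**Figure D5:**
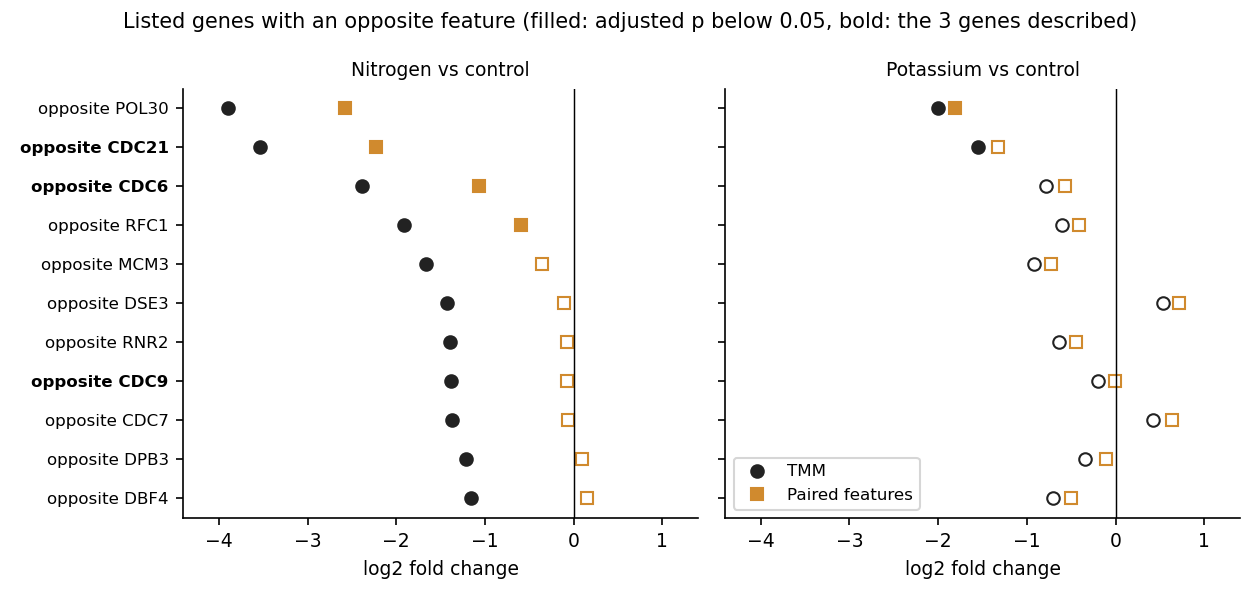
Log2 fold changes of the features opposite 11 listed genes in nitrogen starvation against control and potassium starvation against control, with TMM (circles) and paired scaling (squares); filled symbols have an adjusted p below 0.05. POL30 is filled in all 4 positions, CDC21 in 3, CDC6 and RFC1 in the 2 nitrogen positions, and the other 7 with TMM in nitrogen starvation.

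Under their own identifiers 45 of the 138 genes could be tested. In nitrogen starvation reads rose under 14 and fell under 2 with TMM, where 25.8% of all tested features were called higher and 20.4% lower. With paired scaling they rose under 33 and fell under 0, where 57.3% were called higher and 7.53% lower. The 2 falls with TMM were thus lost, with SWE1, which encodes the Wee1 kinase, going to a log2 fold change of 0.03. Reads under DFR1, the dihydrofolate reductase that restores the folate used by thymidylate synthase, numbered 284 and 208 in nitrogen, 6 and 1 in potassium, and 1 and 2 in control (log2 fold change 5.79 against control, SE 0.58, edgeR adjusted p = 1.1e-04). Reads under CTF18, of an alternative clamp loader, rose in both starvations, with 195 and 179 in nitrogen, 39 and 25 in potassium, and 9 and 9 in control. In potassium starvation reads rose under 2 of the 45, CTF18 and SWE1, and fell under 0, also with paired scaling. Over all tested features 4.73% were called higher and 4.60% lower with TMM, and 5.55% higher and 3.57% lower with paired scaling. The counts in potassium starvation are near these shares. These values describe counts under the identifiers alone.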

How the data were processed

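The authors' deposited files give estimated counts and TPM for each library, and 1 table of the series gives a signal, counts divided by a size factor per library. Column names are those of salmon output, per the file headers. STAR 2.7.3a, DESeq2 and build R64 are named in the submitters' processing notes. How strand was treated is not given in the sources used here. Multiplying the signal back gave whole reads in 100% of values, equal to the rounded counts. The tolerance was a fraction of 0.001 of the count, so it is loose at high counts.

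Annotated features took RefSeq R64 positions, and a scan of the R64 genome, near the neighbours that systematic names imply, located 630 others by matching deposited length to open frames. On 5684 annotated genes the search gave 5610 single hits, 5603 of them right. Deposited lengths equalled coding lengths in 99.1% of annotated protein-coding genes. Pairing required that 50% or more of the feature, and 100 bases or more, lie opposite exactly 1 annotated gene, protein-coding.

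Counts were rounded and tested with edgeR 4.0.16 (R 4.3.3): filterByExpr kept 2325 features, 1 model covered the 6 libraries, leaving 3 residual degrees of freedom, and p-values were Benjamini-Hochberg adjusted over the 2325. The method was tested on simulated data in which most features held steady, so that test does not bear on the choice of scaling. Alternatives were other scalings, no filter, DESeq2 1.42.0, limma 3.58.1 on log2(TPM + 1), a fit of 2 groups, a batch block and each library left out. The labels give a batch shared by same-numbered libraries; deviations of same-numbered libraries correlated at 0.01 to 0.07. Members, lists and tests were chosen with earlier results of these data known. Named genes are the 3 members, their opposite genes, neighbours within 500 bases on the same strand, listed genes with a paired feature, the 5 nearest profiles of each member, and, of listed genes called under their own identifier, examples from the 2 smallest adjusted p of a list.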

Additional observations from a re-analysis of the deposited data

How the results depend on the processing

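For YOR073W-A in nitrogen starvation against control, each of 14 alternatives kept the direction and the call (log2 fold change -3.86 to -1.57). YJL195C in nitrogen starvation against control kept both in 12 of 14, and did not pass with library size alone (-0.66) or limma on TPM (-0.34). YDL163W in nitrogen starvation against control reversed with library size (0.33) and TPM (0.58) and was not called with paired scaling (-0.07), without a filter (-1.03) or by DESeq2 (-1.39, adjusted p = 0.05); leaving out 1 library gave -1.79 to -1.03. YOR073W-A in potassium starvation against control was not called with library size (-1.21), paired scaling (-1.32), no filter (-1.56), TPM (-1.28) or the replicate block (-1.53), nor without any 1 library (-1.68 to -1.43). YDL163W in potassium starvation against control, never called, reversed with library size (0.05) and TPM (0.08), and leaving out 1 library gave -0.54 to 0.16, the last without potassium library 1. In nitrogen against potassium starvation, YOR073W-A was not called with library size (-0.62), paired scaling (-0.92) or TPM (-0.29), and leaving out 1 library gave -2.31 to -1.67, the last, without nitrogen library 1, not called. There YJL195C was not called with library size (-0.16) or paired scaling (-0.50) and reversed with TPM (0.13), and YDL163W reversed with library size (0.28) and TPM (0.51) and was called with the block (-1.21). Apart from this call and that of YOR073W-A in potassium starvation against control, the block changed no call of the 3 features. The cause was not tested.

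Calls over all features numbered 1075 in nitrogen starvation against control (1683 with TPM), 217 in potassium starvation against control (111 with library size, 22 with TPM, 99 to 255 without 1 library: 99 without potassium library 1, 142 without control library 1 and 116 without control library 2) and 992 in nitrogen against potassium starvation. Splits of lower to higher moved with scaling: for nitrogen against control they were 474 to 601 with TMM, 175 to 1332 with paired scaling and 115 to 1458 with library size, for nitrogen against potassium 450 to 542, 177 to 1153 and 97 to 1209, and for potassium against control 107 to 110, 83 to 129 and 41 to 70. With fewer than 100 reads per feature and library, counting error alone is wide, and small changes were not detectable at this depth.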
